A study of Rattus norvegicus with 4 samples.

Results

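The genes described here are those of the rat major histocompatibility complex (MHC), called RT1 in the rat, together with 6 genes of the antigen presentation pathway (Cd74, B2m, Tap1, Tap2, Tapbp and Ciita). They were chosen by name: every gene probe whose RefSeq transcript accession, without its version, led to a symbol that starts with RT1- or equals 1 of those 6. This gave 48 genes with 64 probes, of 16581 named genes on the array. They comprise 32 class I genes, 10 class II genes and the 6 accessory genes. A further 25 symbols of the same rule in the RefSeq gene table, many of them pseudogenes, had no probe named through an accession. Class I was divided by name into 14 genes of the A and C regions (RT1-A and RT1-CE) and 18 of other regions (RT1-M, N, O, S and T).

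The 4 samples were cultures of NR8383, a macrophage line established by lavage of the lung of a normal rat, at 20 passages. They were seeded in 25 cm2 flasks, grown for 48 h and then kept with NRCWE006 for 4 h. NRCWE006 is a multi-walled carbon nanotube, and its dose was 1 cm2 per cm2. All 4 cultures received it and form 1 group with 4 biological replicates, so every value below is a level in exposed cells and none is an effect of the nanotubes. Unexposed cultures were not analysed here, and no test between groups could be made. The line grows partly attached and partly floating, and bulk RNA was measured, so fewer cells with a transcript and less of it per cell cannot be told apart.

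MHC class I molecules show peptides made inside the cell to cytotoxic T cells. Their heavy chain pairs with beta-2-microglobulin, and the peptides come from the proteasome and are pumped into the endoplasmic reticulum by the TAP transporter. MHC class II molecules are pairs of an alpha and a beta chain that show peptides from ingested material to helper T cells. The invariant chain, encoded by Cd74, fills their groove until the DM heterodimer exchanges its remnant for a peptide in the endosome. Class II transcription depends on the coactivator CIITA, and resting macrophages are known to carry little class II until interferon gamma induces it.

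The readout was the Cy3 signal of 1-colour Agilent arrays, 1 array per culture with 58717 gene spots. A probe was called on an array where over 50% of its spots were flagged well above background by the scanner software, and a gene was detected where 1 of its probes was called on all 4 arrays. Levels are log2 signals relative to the 75th percentile of the detected probes of the same array, whose signals were 384, 281, 236 and 223 in the order of the replicates. Probes differ in how strongly they bind, so a level is compared only with that of the same probe on another array. Having 4 arrays bounds how precisely any of these levels is known. Replicate 4 stood apart from the other arrays: it had the most called probes (6476 against 4252 to 5722) and the most spots flagged as uneven or outlying (1296 against 546 to 596). Of the macrophage markers, 4 of 10 were detected (Cd68, Lyz2, Fcgr1a and Spi1), against 11.9% of all named genes. None of the 12 markers of B, T and dendritic cells with a probe was, which for so few genes is not far from that share. The B cell marker Pax5 was called on 2 arrays. Csf1r, Itgam, Mrc1, Adgre1 and Cd14 were not called on any array.

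Transcripts of some of the class I heavy chains, of B2m and of the DM pair were detected. Those of the presenting class II chains and of Cd74 were not, although the chain gene RT1-Db2 was called on 2 arrays. Of the 48 genes, 13 (27.1%) were detected. The same was true of 11.9% of the 16419 named genes with a usable spot on every array. The 13 were 10 of 32 class I genes, 2 of 10 class II genes and 1 of the 6 accessory genes. Another 12 genes were called on 1 to 3 arrays, and 23 on none. With a threshold set by negative controls instead, 21 of the 48 were detected, against 21.5% of the named genes. By the first call, the genes detected in class I included all 3 RT1-A genes, and the 2 in class II were RT1-DMa and RT1-DMb.

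**Figure D1:**
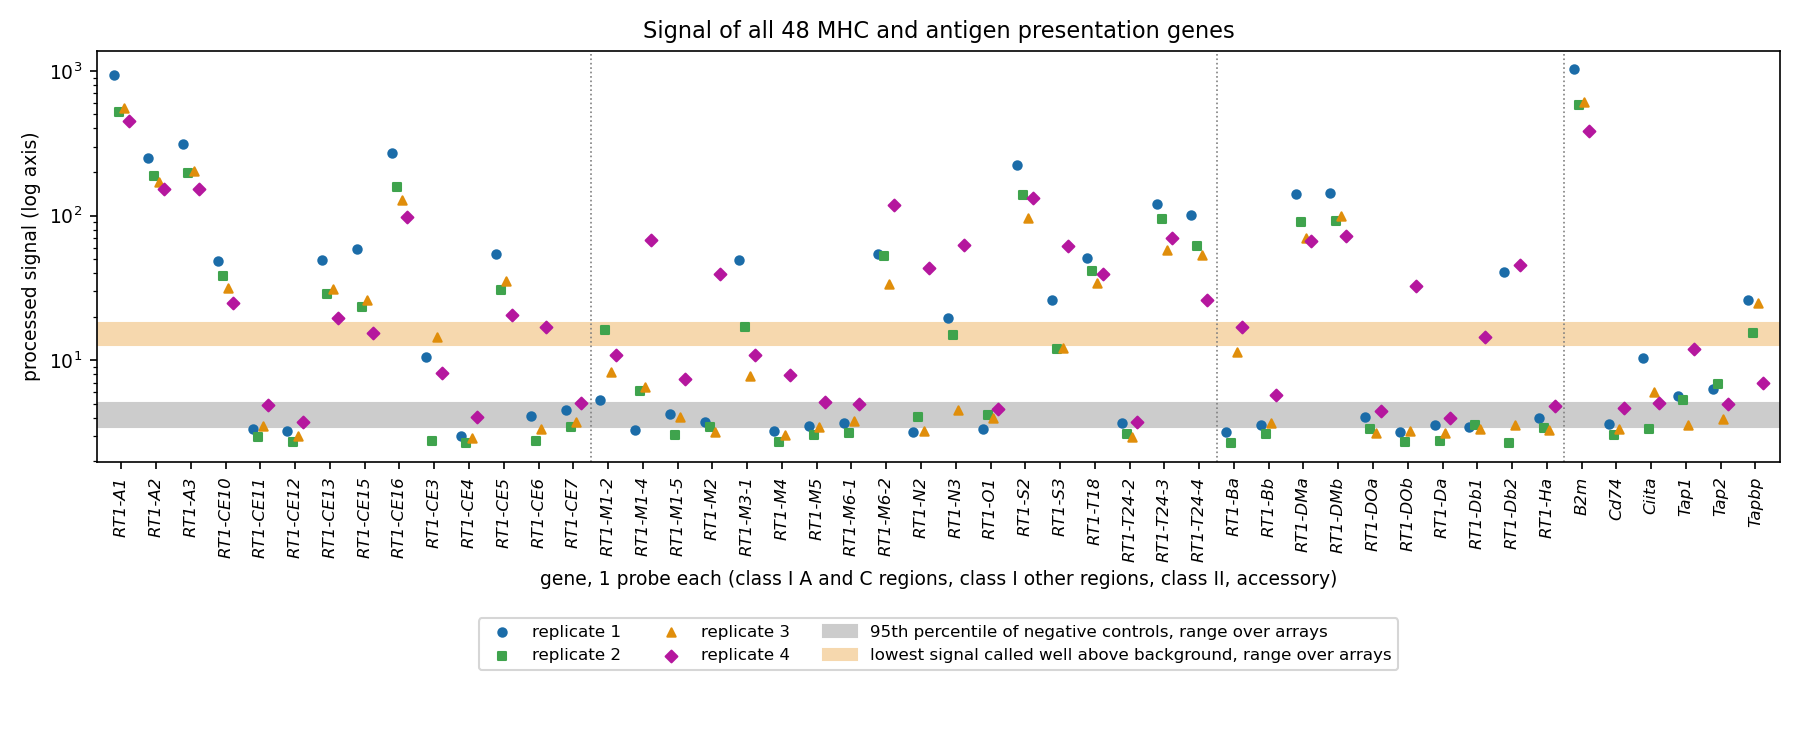
Processed signal (vertical axis, log scale) of the 48 MHC and antigen presentation genes on the 4 arrays, with 1 probe per gene and 1 marker per replicate. The bands mark the 95th percentile of negative control spots and the lowest signal called well above background. The signals of RT1-A1 and B2m lie between 384 and 1024, while those of Cd74 and RT1-Da lie among the negative controls.

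The RT1-A genes encode the heavy chains of the classical class I molecules, and each was measured by a probe annotated to its own transcript. Probe sequences were not compared, so these paralogs may share signal and need not be separate observations. RT1-A1 had levels of 1.29, 0.89, 1.23 and 1.02 in replicates 1 to 4, a mean of 1.11 ± 0.18 (SD, n = 4). Its processed signal was 936, 521, 554 and 451, against a lowest called signal of 12.8 to 18.0 on the same arrays. RT1-A2 had -0.61, -0.59, -0.47 and -0.55, and its SD of 0.06 was the smallest of the 13 detected genes. For RT1-A3 the levels were -0.29, -0.52, -0.22 and -0.56 (SD 0.17, n = 4). The 4 cultures thus lay within 0.39 of each other on the log2 scale in each of the 3 genes. RT1-A3 had a second probe that was called on replicate 4 alone, so the probes of that gene disagreed.

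The promoters of these 3 genes are shown because all 3 were detected and because they share a textbook regulatory element of class I genes. The windows are the 200 bases before the annotated start, in RefSeq assembly GRCr8, and capitals mark an 11-base NF-kB site. The windows lie on the plus strand, at chr20:4907009-4907208 for RT1-A1, chr20:4872671-4872870 for RT1-A2 and chr20:4849251-4849450 for RT1-A3.
RT1-A1: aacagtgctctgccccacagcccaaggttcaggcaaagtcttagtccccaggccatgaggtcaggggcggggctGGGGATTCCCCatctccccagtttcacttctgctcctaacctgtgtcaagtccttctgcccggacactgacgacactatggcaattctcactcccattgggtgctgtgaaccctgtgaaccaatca
RT1-A2: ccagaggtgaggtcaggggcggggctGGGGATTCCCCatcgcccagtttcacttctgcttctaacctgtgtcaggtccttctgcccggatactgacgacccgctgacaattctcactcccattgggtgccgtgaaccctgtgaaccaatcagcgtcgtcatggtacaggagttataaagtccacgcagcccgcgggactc
RT1-A3: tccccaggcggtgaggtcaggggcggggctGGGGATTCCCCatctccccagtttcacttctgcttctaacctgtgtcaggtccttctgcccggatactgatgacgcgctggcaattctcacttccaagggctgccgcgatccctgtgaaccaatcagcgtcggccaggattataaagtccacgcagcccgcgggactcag
Both strands were searched, and each match in a member lay on the gene's own strand. The site was present in the windows of 8 of 28 class I genes with a promoter sequence and of 19 of all 33469 promoters (0.0568%). Of those 8 genes, 4 were detected (RT1-A1, RT1-A2, RT1-A3 and RT1-CE16) and 4 were not (RT1-CE4, RT1-CE10, RT1-CE11 and RT1-CE13). The windows resemble each other over most of their length, as gene copies do, so the 8 matches are not independent of each other.

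B2m, the light chain common to class I molecules, had levels of 1.41, 1.05, 1.36 and 0.78 in replicates 1 to 4, a mean of 1.15 ± 0.30 (SD, n = 4). It was lowest in replicate 4, by 0.49 below the mean of the other arrays. The median of all detected genes lay at -0.07 by the same measure, and 56.6% of them were lower in replicate 4. Relative to that median, B2m lay at -0.42. Over the 9 settings tried, this value lay between -0.50 and -0.05. These settings are not separate checks: a shift of a whole array cancels against the median, and B2m has 1 probe.

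Among the RT1-CE genes, class I genes of the C/E region, RT1-CE16 and RT1-CE5 were detected. The levels of RT1-CE5 were -2.82, -3.19, -2.74 and -3.45 (SD 0.33, n = 4), near the limit of detection. RT1-CE16 was measured by 2 detected probes, which disagreed on replicate 4. The brighter probe had -0.50, -0.83, -0.87 and -1.20, so replicate 4 was its lowest array. The other had -1.47, -1.65, -1.89 and -0.55, with replicate 4 the highest. Against the mean of the other arrays, replicate 4 lay at -0.47 by the first probe and at 1.12 by the second, so the direction for RT1-CE16 depends on the probe. RT1-CE10, RT1-CE13 and RT1-CE15 each had a probe that was called on replicates 1 to 3 and not on replicate 4, with signals of 23.3 to 58.3 on the arrays that called it. On replicate 4 these probes had signals of 24.8, 19.7 and 15.5. The lowest called signal of that array was 18.0, and RT1-CE5 was called there at 20.4, so the missed calls lay near the limit. The level of RT1-CE10 was -2.98, -2.88, -2.90 and -3.17 in replicates 1 to 4. The second RT1-CE13 probe was called on replicate 4 alone, with signals of 7.33, 3.85, 7.91 and 87.1, so the probes of that gene disagreed too. RT1-CE3, RT1-CE4, RT1-CE6, RT1-CE7, RT1-CE11 and RT1-CE12 were not called on any array. Close paralogs of this family are much alike in sequence, and a probe may bind the transcripts of more than 1 of them. The share of each gene in such a signal cannot be told apart here.

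The class I genes of other regions encode nonclassical heavy chains, which tend to be expressed in few tissues. RT1-S2 had levels of -0.77, -1.02, -1.30 and -0.76 (SD 0.25, n = 4), and RT1-T24-3 had -1.67, -1.56, -2.02 and -1.66 (SD 0.20). RT1-T18 lay at -2.92, -2.77, -2.79 and -2.50 (SD 0.18), while its second probe was not called on any array. In these 3 genes the arrays lay within 0.54 of each other.

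RT1-T24-4 and RT1-M6-2 were the only detected members that ranged over more than 2-fold between the highest and the lowest array, 2 of 13 against 15.3% of all detected named genes. RT1-T24-4 had -1.93, -2.19, -2.15 and -3.10 in replicates 1 to 4 (SD 0.52, n = 4). Its probe was printed 10 times per array, and the SD between spots of an array was 0.18 to 0.26. The spots of replicate 4 had signals of 19.7 to 34.4, none as high as the lowest spot of replicates 1, 2 or 3 (82.6, 48.6 and 40.4). Of the 9 spots left on replicate 4, 7 were called. The gene's other 2 probes were not called on any array, and 1 of them had no usable spot on replicate 4.

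RT1-M6-2 moved the other way, with -2.83, -2.41, -2.81 and -0.91 (SD 0.91, n = 4). It rested on a single spot per array, with a signal of 119 on replicate 4 against 33.5 to 54.1 on the others. Set against the all-gene median, replicate 4 lay at 1.85 for RT1-M6-2 and at -0.94 for RT1-T24-4. Over the settings tried, these values lay between 0.59 and 2.01 for the first gene and between -1.85 and -0.32 for the second. Without replicate 4, none of the detected members ranged over more than 2-fold, and 3.66% of all detected named genes did.

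The remaining class I genes of these regions were not detected. RT1-M3-1, which in rodents presents formylated peptides, had 2 probes, called on 3 and on 2 arrays. RT1-N3 and RT1-S3 were called on replicates 1 and 4, while RT1-M1-4, RT1-M2 and RT1-N2 were called on replicate 4 alone. RT1-M2, for example, had signals of 3.72, 3.45, 3.21 and 39.6, with replicate 4 far from the others. The second probes of RT1-N2, RT1-N3 and RT1-S3 were not called on any array, so the probes of these genes disagreed. The genes RT1-M1-2, RT1-M1-5, RT1-M4, RT1-M5, RT1-M6-1, RT1-O1 and RT1-T24-2 were not called on any array.

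**Figure D2:**
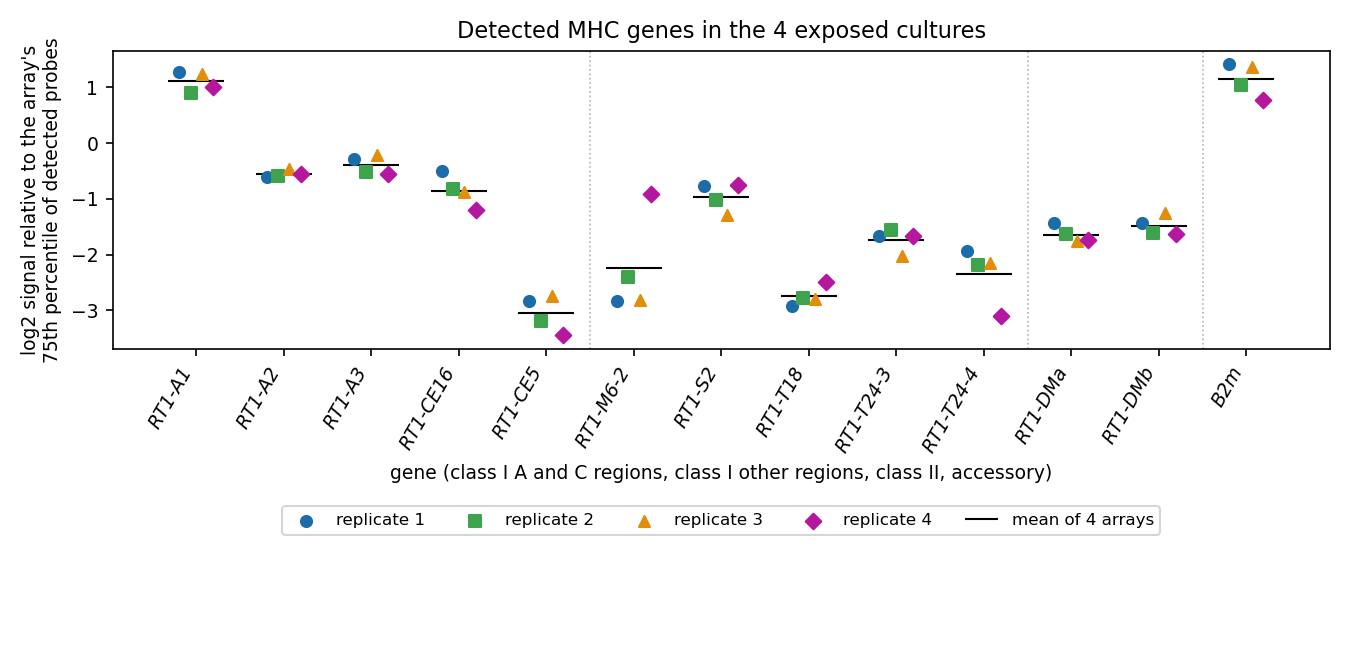
Level of the 13 detected genes (vertical axis, log2 signal relative to the 75th percentile of the array) in replicates 1 to 4, with a bar at the mean. The 4 markers of a gene lie close together except for RT1-M6-2, high in replicate 4 at -0.91, and RT1-T24-4, low in it at -3.10; levels of different genes are not comparable.

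Class II transcripts were detected on all 4 arrays for the peptide editor and for none of the chains of the molecules it edits. RT1-DMa and RT1-DMb encode the chains of DM, which loads peptides onto class II molecules in endosomes. RT1-DMa had levels of -1.44, -1.64, -1.75 and -1.73 (SD 0.14, n = 4). Those of RT1-DMb were -1.42, -1.62, -1.24 and -1.62 (SD 0.18). Their signals were 67.2 to 143 over the 4 arrays, all above the lowest called signal of 12.8 to 18.0. In both genes the cultures differed by less than the median gene, whose SD was 0.24. This depended on the processing. Without scaling, the SD was 0.49 for RT1-DMa and 0.41 for RT1-DMb, against 0.46 for the median gene. When scaled by all gene probes, it was 0.87 and 0.88, against 0.85.

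RT1-Ba and RT1-Bb, the chains of the B molecule, and RT1-Da and RT1-Db1, chains of the D molecule, were not called on any array. RT1-Da was printed 2 times per array and had signals of 3.59, 2.75, 3.16 and 4.00, which are log2 means over its spots. The 95th percentile of the negative control spots was 4.00, 3.48, 3.99 and 5.10 on the same arrays, so RT1-Da lay below it on each array. For RT1-Bb the signals were 3.56, 3.09, 3.68 and 5.77, above that percentile on replicate 4 alone. RT1-Ba reached 11.4 and 16.9 on replicates 3 and 4, and RT1-Db1 reached 14.6 on replicate 4, where 1 of its 2 spots was left. RT1-Db2, a second D beta gene, was called on replicates 1 and 4 with signals of 40.8 and 45.5, and lay at 2.69 and 3.54 on replicates 2 and 3. RT1-DOa and RT1-DOb encode DO, a modulator of DM. RT1-DOa was not called on any array, and RT1-DOb was called on replicate 4 alone. RT1-Ha was not called. The array number of 4 and a single probe per gene set the limit here, since being not well above background is no level of 0.

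Cd74, the invariant chain, was measured by a probe printed 10 times per array, and 0 of its spots were called on any array. Its median signal was 3.42, 3.01, 3.39 and 4.91 on replicates 1 to 4, above 56.3%, 57.1%, 56.5% and 72.9% of the negative control spots of the same array. The Cd74 signal thus lay within the range of the negative controls on each array. Both probes of Ciita, the class II coactivator, were not called on any array, with a highest signal of 10.3.

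On chromosome 20, the order of the genes in the RefSeq table put the detected class II genes next to each other. RT1-DMb and RT1-DMa are adjacent, and the immunoproteasome gene Psmb9 is the neighbour of RT1-DMb. From RT1-Da to RT1-Ha the table lists 17 genes, of which 4 were detected: Psmb8, Psmb9, RT1-DMb and RT1-DMa. Of all named genes, 11.9% were. Tap1 lies between the 2 proteasome genes and was not detected, and no probe was named for Arrb2-ps and Brd2l. The 6 class II genes at the end that starts with RT1-Da were not detected.

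**Figure D3:**
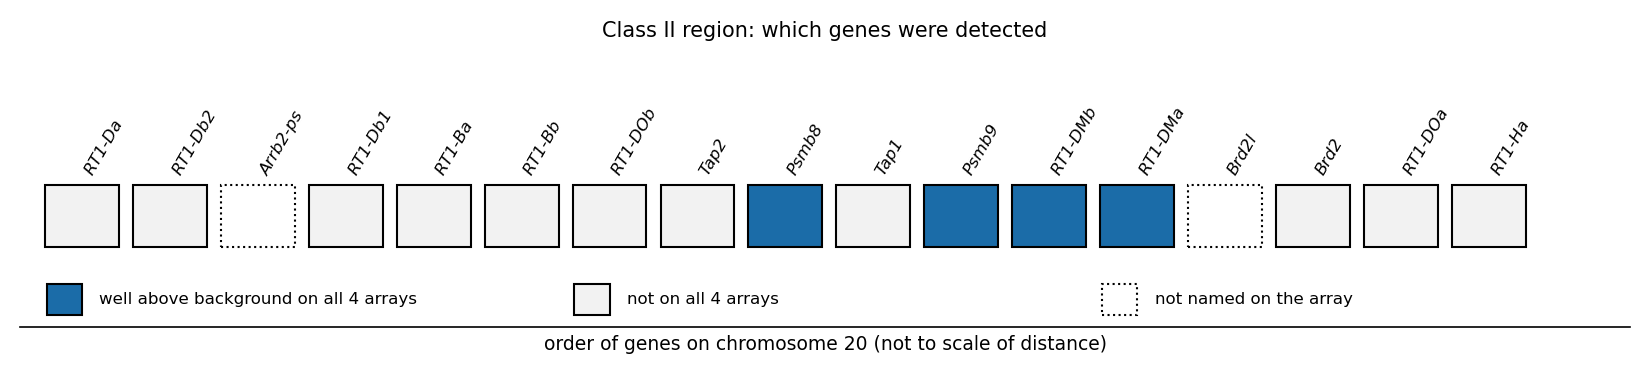
Genes in their order on chromosome 20 from RT1-Da to RT1-Ha, with filled boxes for genes well above background on all 4 arrays; boxes are evenly spaced and show no distances. The 4 filled boxes are Psmb8, Psmb9, RT1-DMb and RT1-DMa, with Tap1 unfilled between the first 2.

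The promoters of 4 class II genes are shown to set the detected RT1-DMa beside 3 chain genes that were not detected. Capitals mark the CCAAT-box core GATTGG on either strand (CCAATC on the other), part of the Y box that binds NF-Y, and the X1 box core CAACNGATG, part of the site that binds the RFX complex. The windows lie at chr20:4712336-4712535 on the minus strand for RT1-DMa, chr20:4515215-4515414 on the plus strand for RT1-Da, chr20:4560163-4560362 on the minus strand for RT1-Db1 and chr20:4576857-4577056 on the plus strand for RT1-Ba (RefSeq, GRCr8).
RT1-DMa: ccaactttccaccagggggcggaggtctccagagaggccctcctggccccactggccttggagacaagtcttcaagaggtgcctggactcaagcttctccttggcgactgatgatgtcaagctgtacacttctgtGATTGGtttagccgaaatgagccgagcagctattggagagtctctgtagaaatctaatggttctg
RT1-Da: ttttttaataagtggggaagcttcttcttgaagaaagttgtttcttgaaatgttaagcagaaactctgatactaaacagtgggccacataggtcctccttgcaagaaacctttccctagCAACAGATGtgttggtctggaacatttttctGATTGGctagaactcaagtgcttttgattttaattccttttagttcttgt
RT1-Db1: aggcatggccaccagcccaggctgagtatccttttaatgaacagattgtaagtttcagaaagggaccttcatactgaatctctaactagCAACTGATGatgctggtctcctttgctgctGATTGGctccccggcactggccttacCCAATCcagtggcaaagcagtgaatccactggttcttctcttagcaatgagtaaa
RT1-Ba: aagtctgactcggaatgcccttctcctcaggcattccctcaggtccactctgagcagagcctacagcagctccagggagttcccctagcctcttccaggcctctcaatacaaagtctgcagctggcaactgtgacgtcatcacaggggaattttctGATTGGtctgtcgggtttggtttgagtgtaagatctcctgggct
The core GATTGG was present in the windows of all 9 class II genes with a promoter sequence, of 13 of 28 class I genes and of 11.4% of all promoters. Of the 9 class II genes, 1 was detected and 8 were not, so these letters did not separate the detected gene from the others. The letters CAACNGATG were present in RT1-Da, RT1-Db1, RT1-Db2 and RT1-DOb, of which none was detected, and in 0.379% of all promoters. Only exact matches were counted, so a window without a match may still hold a variant of the X1 box. The window of RT1-DMa holds similar letters ahead of its GATTGG, which the pattern misses. Whether those letters act as an X1 box was not tested. In the members, matches of different motifs did not overlap. A match is a run of letters and no measured binding.

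Of the transporter and loading genes among the members, none was detected on all arrays. Tap1 and Tap2, the subunits of the peptide transporter, had 2 probes each, and none was called on any array. The second Tap1 probe had signals of 7.81, 6.34, 3.91 and 6.17, and the Tap2 probe printed 2 times had 6.36, 6.82, 3.89 and 4.99, all under the lowest called signal of 12.8 to 18.0. Tapbp, which encodes tapasin, the bridge between TAP and the class I heavy chain, was called on replicates 1 to 3 with signals of 26.1, 15.4 and 25.0, and not on replicate 4, at 6.95. The core of the interferon-stimulated response element, searched on both strands, read TTTCGGTTTC in Tap1 and GAAAGCGAAA, on the other strand, in Tap2. It was present in the windows of B2m, Tap1, Tap2 and Tapbp, 4 of 5 accessory genes with a sequence, of 2 of 28 class I genes (RT1-S2 and RT1-S3) and of 2.74% of all promoters. The 2 matches in Tapbp overlap each other. B2m, detected, and Tap1 and Tap2, not called, thus share these letters. Only exact matches to the searched pattern were counted, so a window without a match may still hold a variant of the element. The windows of RT1-A1, RT1-A2 and RT1-A3 shown above hold similar letters soon after the NF-kB site, which the pattern misses. Whether those letters act as such an element was not tested.

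All 5 peptide supply genes with a probe were detected, against 11.9% of all named genes. They were the immunoproteasome subunits Psmb8, Psmb9 and Psmb10 and the proteasome activator subunits Psme1 and Psme2. Their mean levels were -0.74 ± 0.17, -0.66 ± 0.15, -1.54 ± 0.13, 1.02 ± 0.11 and 0.90 ± 0.12 (SD, n = 4). Of 6 chaperones and channel genes of the endoplasmic reticulum, 4 were detected, against the same 11.9%. They were the chaperones Calr at -1.16 ± 0.28, Canx at -2.78 ± 0.65 and Hspa5 at -1.91 ± 0.18, and the translocon gene Sec61a1 at -1.10 ± 0.14 (SD, n = 4). Pdia3, which joins the loading complex, was called on 3 arrays.

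In the endosomal pathway that serves class II, 4 of 6 genes were detected, against 11.9% of all named genes. They were the proteases Ctss at -2.68 ± 0.17, Ctsb at 2.60 ± 0.13 and Ctsd at 1.22 ± 0.12, and the thiol reductase Ifi30 at 1.13 ± 0.06 (SD, n = 4). Lgmn was called on 2 arrays and Ctsl on none. Ctss, which degrades the invariant chain, was thus detected and Cd74 was not.

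Of 11 genes of transcriptional control with a probe, 1 was detected, against the 11.9% of all named genes. It was Spi1, the factor PU.1, at -3.14 ± 0.73 (SD, n = 4), with -3.58, -3.48, -3.44 and -2.05 in replicates 1 to 4. Irf1 and Rfxank were called on 3 arrays each, and Rfx5, Rfxap, Nfya, Nfyb, Nfyc, Creb1 and Irf8 on none. Of the interferon gamma receptor and its kinases, 1 of 4 was detected, the receptor chain Ifngr1 at -1.16 ± 0.29 (SD, n = 4). None of the 6 costimulation and turnover genes was detected, and Cd80, Cd86, Cd274 and Marchf1 were not called on any array. Fcgrt, the neonatal Fc receptor, was the 1 of 6 MHC-like molecules outside the RT1 names that was detected, at -2.69 ± 0.19 (SD, n = 4). In lists this short, the counts of this paragraph are not far from the 11.9% of all named genes.

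**Figure D4:**
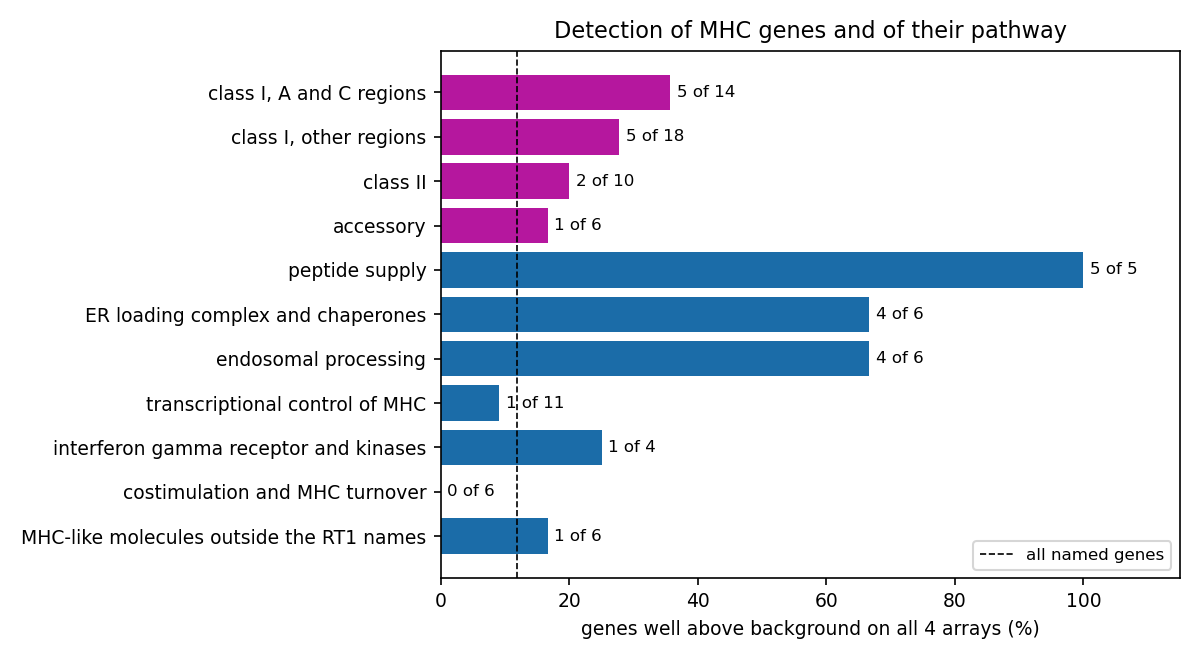
Share of genes well above background on all 4 arrays (horizontal axis, percent) in 4 groups of MHC members and 7 lists of pathway genes, with the count at each bar and a dashed line at 11.9% for all named genes. Peptide supply genes reach 5 of 5, and costimulation genes 0 of 6.

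The cultures differed little in most of the detected MHC genes. The median SD of the 13 was 0.20, against 0.24 for all 1946 detected named genes, of which 10% lay below 0.10 and 10% above 0.52. The order of these medians depended on the processing. Without replicate 4, the median SD was 0.22 for the 18 members then detected, against 0.19 for all detected named genes. None of the 13 had a culture set apart from the other 3 by Dixon's ratio, the gap to the nearest value over the whole range, against 7.66% of all detected named genes. Replicate 4 lay below the mean of replicates 1 to 3 in 8 of the 13 genes, near the 56.6% of all detected named genes. It was the lowest array in 6 of the 13 and the highest in 3, counts for which no share of all genes was computed. Among the 6, RT1-DMb lay at -1.62 in both replicates 2 and 4. For RT1-CE16, also among the 6, the second detected probe was highest in replicate 4. Over the 9 settings, replicate 4 relative to the all-gene median ranged from -0.31 to 0.29 for RT1-A1 and from -0.14 to 0.46 for RT1-A2, so it has no fixed direction in either gene. In 6 genes (B2m, RT1-A1, RT1-A3, RT1-CE5, RT1-DMb and RT1-T24-4) replicates 1 and 3 were both above replicates 2 and 4, a pattern picked after the values were seen. It was present in 22.8% of all detected named genes. The probes of RT1-A1, RT1-A3 and RT1-CE5 may share transcripts, so these 3 need not be separate observations.

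**Figure D5:**
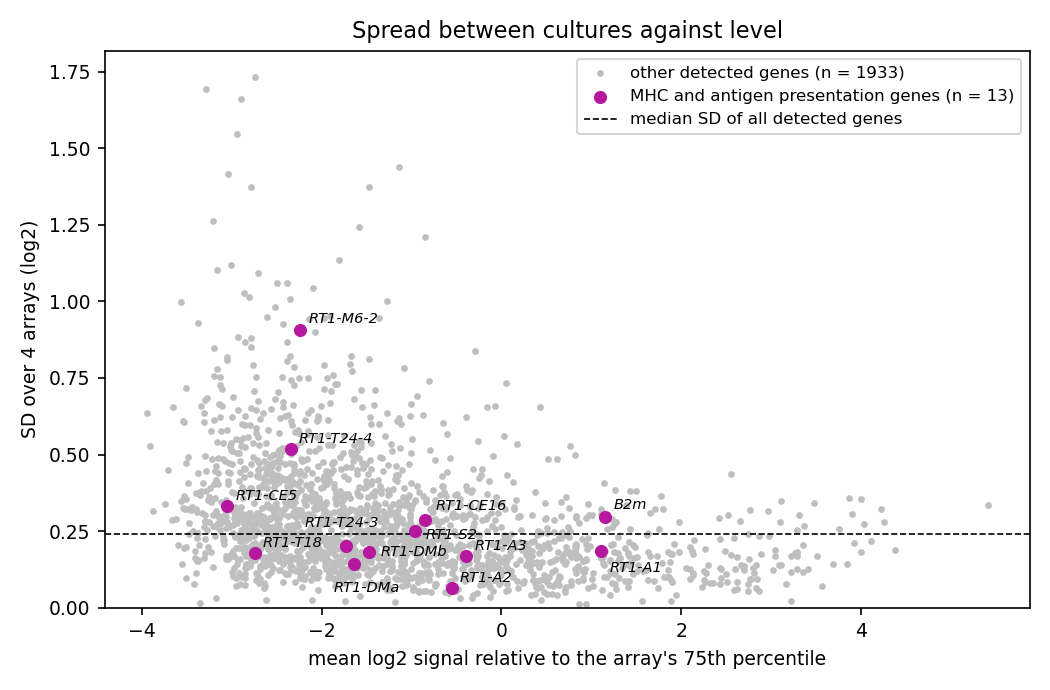
SD over the 4 arrays (vertical axis, log2) against mean level (horizontal axis, log2 relative to the 75th percentile) for the 1946 detected named genes, with the 13 MHC and antigen presentation genes in colour and a dashed line at the median SD. RT1-M6-2 at 0.91 and RT1-T24-4 at 0.52 lie above the other members, and RT1-A2 at 0.06 lies lowest.

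Some calls differed between replicate 4 and the other arrays. Of 64 probes, 6 (9.38%) were called on replicate 4 alone, near the 6.47% of all gene probes. Another 5 (7.81%) were called on replicates 1 to 3 and missed on replicate 4, against 1.61% of all gene probes. That share also counts probes called on no array, which could not be missed. Probes of RT1-CE10, RT1-CE13 and RT1-CE15 are among the 5 and may share transcripts, so they need not be separate observations. Without replicate 4, the detected members numbered 18 and not 13, while the share of all named genes detected rose from 11.9% to 14.8%. The 5 added were RT1-CE10, RT1-CE13, RT1-CE15, RT1-M3-1 and Tapbp. The detected class II genes remained RT1-DMa and RT1-DMb.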

How the data were processed

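One-colour Agilent arrays of 4 exposed cultures were analysed. Per the file headers, the values are spot intensities, deposited unlogged and not scaled between arrays. The submitters' processing notes name Agilent Feature Extraction 11.0.1.1 as the tool, whose processed signal is background-subtracted. Median signal and background intensity served 1 alternative. Other deposited columns are 0 or 1 flags, used as written.

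Control spots (4259) and spots flagged non-uniform or population outlier were left out. Log2 signals of a probe's spots were averaged and scaled by the array's 75th percentile over detected probes, since under 50% of probes were detected. The detected probe with the highest mean stood for a gene. Accessions without versions were matched to RefSeq assembly GRCr8 (21109 of 45598 probes named). Promoter windows were found for 42 of 48 members, and those of Ciita, RT1-CE7, RT1-DMb, RT1-M1-4, RT1-M2 and RT1-M4 were not used. Probe sequences were not used.

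With 1 group there was no test. Members and lists were chosen with earlier results of these data known. All members were to be accounted for, and every detected gene of the pathway lists named. A gene of the transcriptional control list is counted and not reported here by name. Scaling, spread and gene summary were checked on simulated data. Alternatives were other background calls, detection, scaling, normexp (limma version 3.58.1, R version 4.3.3), spot flags, probe rules and leaving out replicates. Python version 3.11.15, numpy version 2.4.6 and pandas version 2.3.3 were used.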

Additional observations from a re-analysis of the deposited data

Results flagged for a closer look

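The 48 members and every gene with a probe in the pathway and marker lists were examined. Among them, 4 had 1 culture that stood apart from the other 3 by Dixon's ratio. This is the gap to the nearest value divided by the whole range, here beyond its 95% critical value for 4 samples. Replicate 4 was the high sample in each. Spi1, detected on all arrays, had a ratio of 0.904, and 7.66% of all detected named genes were set apart in this way. RT1-M2 had a ratio of 0.883, the macrophage marker Marco 0.912 and the MHC-like gene Azgp1 0.878. In these 3 genes replicates 1 to 3 were not called, so the ratio measures the distance of replicate 4 from background signals, and Azgp1 was not called on replicate 4 either. Chance alone sets apart about 1 in 20 groups by this ratio, and 4 among all the genes examined is not above that share.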

How the results depend on the processing

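RT1-DMa and RT1-DMb were the 2 detected class II genes in every alternative in which detection was counted, although most of these alternatives can only keep or add genes. Of the class I genes, 17 were detected with the background call set by negative controls, where 21.5% of all named genes were, and 14 without replicate 4 or with a call on at least 3 arrays, where 14.8% and 15.6% were. The accessory genes numbered 2 in those 3 settings. The median SD of the members was 0.20, against 0.24 over all detected named genes. It was 0.87 against 0.85 when scaled by all gene probes, and 0.49 against 0.46 without scaling. After quantile normalization it was 0.32 against 0.36, and with normexp 0.20 against 0.17. With no filter on dim probes it was 0.53, against 0.55 for all measured named genes. It lay between 0.20 and 0.22 with 1 replicate left out, and without replicate 4 it was 0.22 against 0.19. The members thus lay below all genes in some settings and above them in others. The members over 2-fold between arrays numbered 2 of 13 (15.3% of all detected named genes). They were 8 of 21 with the negative control call (35.6% of all), 5 of 18 with a call on at least 3 arrays (24.8%), 12 of 13 when scaled by all gene probes (92.8%), 10 of 13 without scaling (52.8%), 0 of 13 with normexp (2.00%) and 29 of 48 with no filter on dim probes (72.5%). With 1 replicate left out, class I counts lay between 10 and 14, accessory counts between 1 and 2, and members over 2-fold between 0 (without replicate 4) and 2, with 1 without replicate 1. Scaling moves all genes of an array together, and over all detected genes the median SD was 0.85 when scaled by all gene probes; the cause of the other shifts was not tested. No paired analysis was possible because the samples form 1 group. Signal near background limits the class II, TAP and RT1-CE results.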
